A study of Mus musculus with 4 samples.

Results

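The 8 genes described here, *Ccr7*, *S1pr1*, *S1pr4*, *Cxcr4*, *Ccr4*, *Ccr8*, *Ccr6* and *Ccr2*, encode receptors that direct where CD4+ T cells go, and they were chosen by name from the 23339 gene names in the files. Chemokine receptors and sphingosine 1-phosphate (S1P) receptors are membrane proteins that couple to heterotrimeric G proteins and turn a gradient of ligand into directed movement. A resting T cell circulates through lymph nodes: CCR7 draws it in along CCL19 and CCL21, and S1PR1 guides it out again toward the S1P of lymph and blood. Activated and memory T cells can instead express receptors such as CCR4, CCR6, CCR8 and CCR2, whose ligands are made in skin, mucosa and inflamed tissue. The members were read in these roles, 4 as receptors of lymphoid homing and egress (*Ccr7*, *S1pr1*, *S1pr4*, *Cxcr4*) and 4 as receptors of effector and inflammatory traffic (*Ccr4*, *Ccr8*, *Ccr6*, *Ccr2*).

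The study asked what loss of the transcriptional repressor Capicua (CIC) does to T cells. RNA was sequenced from CD4 T cells of C57BL/6J mouse spleen, 1 library for each genotype and time. WT cells came from *Cic* f/f mice and cKO cells from mice with the same floxed alleles and a *Cd4-Cre* transgene, all given as 10 to 12 weeks old. Day 0 cells were naïve by label, and day 3 cells had been cultured for 3 days on plate-bound anti-CD3 and anti-CD28, each at 2 μg/ml. Cre under the *Cd4* promoter acts in every T cell that has passed the CD4 and CD8 double-positive stage of the thymus, so the deletion precedes the stimulation. The labels describe the gate of the naïve cells as CD25- and high in CD44, whereas the study's methods describe naïve cells as low in CD44, so the starting population is uncertain. The mRNA of *Cd44* stood at 19.2 FPKM in the unstimulated WT library and at 12.6 in the unstimulated cKO library.

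Values are FPKM, fragments scaled to the length of the transcript and to the total mapped in the library, from 1 library per condition. Differences between conditions therefore have no replicate check, and no p-value or replicate spread is given for any of them. The smallest steps between low FPKM values implied 7600000 to 9310000 counted fragments per library, and fragments estimated from these steps are given where they limit a value. All 8 T-cell markers were present in all 4 libraries, with a summed FPKM of 997 to 1250. *Cic* itself had 25.4 (WT) and 24.9 (cKO) before stimulation and 17.8 (WT) and 12.2 (cKO) after it. These values cover the whole locus and do not check the deletion of its floxed part. *Etv5*, a known target repressed by CIC, had 0.706 and 1.49 in the WT libraries and 5.95 and 5.85 in the cKO libraries. Macrophage and monocyte markers, 15 genes, had a summed FPKM of 341 (WT) and 107 (cKO) before stimulation and 25.8 (WT) and 16.5 (cKO) after it. WT and cKO values stand in separate tables, each normalized on its own.

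The promoters of *Ccr4* and *Ccr8*, the members whose mRNA was higher after stimulation, and of *Cxcr4*, a member whose mRNA was lower, are shown as the 250 bases before the annotated start. The sequences are those of RefSeq on GRCm38.p6, read 5′ to 3′ on the strand of the gene, and 6 of the 8 members matched the table of promoters. *Ccr4* starts below chr9:114496545-114496794 on the minus strand, *Ccr8* after chr9:120091883-120092132 on the plus strand and *Cxcr4* below chr1:128592300-128592549 on the minus strand. The loci over which *Ccr4* and *Ccr8* were measured reach further upstream than these annotated starts, so both windows lie within their loci. The *Cxcr4* window lies directly next to its locus. Capitals mark matches to the AP-1 motif TGANTCA, the CIC motifs TGAATGAA and TGAATGGA, and the TATA motif TATAAA, each searched on both strands.
Ccr4: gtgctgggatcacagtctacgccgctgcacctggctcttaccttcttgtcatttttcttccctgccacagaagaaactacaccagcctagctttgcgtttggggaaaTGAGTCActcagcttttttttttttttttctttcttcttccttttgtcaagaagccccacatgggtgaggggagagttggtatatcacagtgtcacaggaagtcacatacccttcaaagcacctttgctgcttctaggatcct
Ccr8: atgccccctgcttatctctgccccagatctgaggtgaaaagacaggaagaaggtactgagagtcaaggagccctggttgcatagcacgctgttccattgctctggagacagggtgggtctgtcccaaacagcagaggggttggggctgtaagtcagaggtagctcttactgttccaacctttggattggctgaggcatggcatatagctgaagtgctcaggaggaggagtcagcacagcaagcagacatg
Cxcr4: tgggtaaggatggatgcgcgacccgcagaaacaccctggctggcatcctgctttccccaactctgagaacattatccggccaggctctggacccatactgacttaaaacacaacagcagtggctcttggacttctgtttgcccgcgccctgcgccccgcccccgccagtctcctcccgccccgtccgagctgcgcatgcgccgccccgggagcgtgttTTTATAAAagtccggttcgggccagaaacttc
The *Ccr4* promoter holds a match to the AP-1 motif, which is bound by dimers of FOS and JUN proteins that T-cell receptor signalling induces, and 6.75% of the 32851 mouse promoters of this length hold one. The capitals in the *Cxcr4* promoter are overlapping matches to the TATA motif on both strands, a motif found in 12.4% of promoters. The CIC motifs, found in 1.08% and 1.01% of promoters, had no match in the 7 promoters of these 6 members. The promoters of *Ccr8*, *S1pr4*, *Ccr2* and *Ccr6* had no match to any of these motifs. A match or its absence in this window says nothing of whether a factor binds.

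On day 0 the receptors of lymphoid homing and egress had higher FPKM than those of effector traffic in both genotypes, and the order of the 8 genes was the same in WT and cKO cells: *S1pr1*, *Ccr7*, *Cxcr4*, *S1pr4*, *Ccr2*, *Ccr4*, *Ccr6* and *Ccr8*. The lowest lymphoid receptor, *S1pr4*, had 22.1 in WT and 20.1 in cKO, and the highest effector receptor, *Ccr2*, had 7.10 and 3.07. On day 3 this separation was gone. *Ccr8* headed the order in WT, followed by *Ccr7*, *Ccr4*, *Cxcr4*, *S1pr4*, *S1pr1*, *Ccr2* and *Ccr6*. In cKO *Ccr7* headed it, followed by *Ccr8*, *Ccr4*, *S1pr1*, *Cxcr4*, *S1pr4*, *Ccr6* and *Ccr2*. Since each level comes from 1 library, it is not known which neighbours in these orders would differ beyond the spread of replicates.

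**Figure D1:**
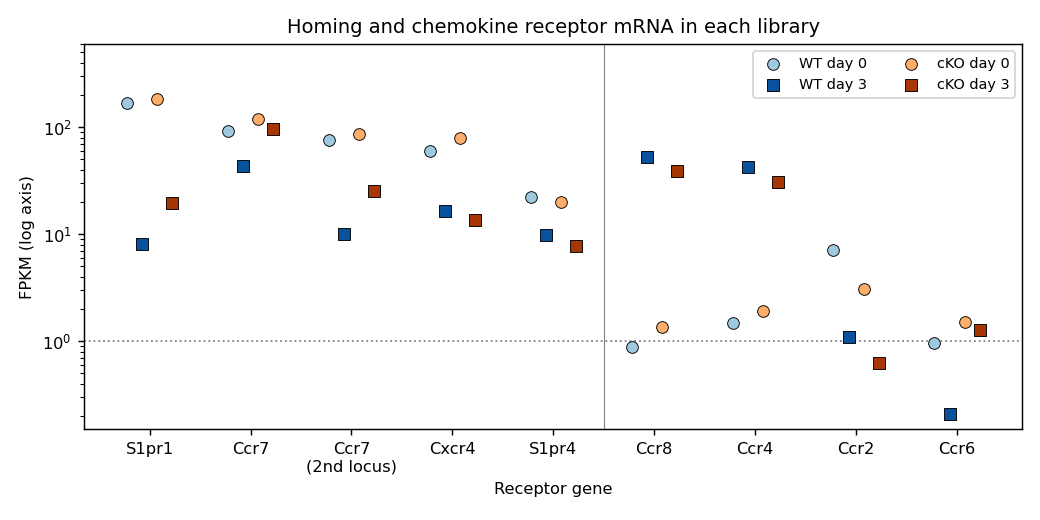
FPKM of each receptor in the 4 libraries, on a log axis, with lymphoid homing and egress receptors left of the vertical line and effector receptors right of it. Each point is 1 library, circles are day 0 and squares day 3, and the dotted line is the FPKM of 1 used as the minimum. On day 0 the lymphoid receptors lie between 20.1 and 182, the effector receptors between 0.890 and 7.10, and on day 3 *Ccr8* and *Ccr4* lie between 30.7 and 52.4.

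The first comparison was day 3 against day 0 within each genotype. Day 3 cells had spent 3 days in culture on anti-CD3 and anti-CD28, and no cells cultured without these antibodies were sequenced. The parts of anti-CD3, anti-CD28 and culture therefore cannot be told apart, and before and after stimulation stand here for day 0 and day 3. Differences are log2 ratios of FPKM after adding 0.1 to each value, for genes that reached an FPKM of 1 in either of the libraries compared, and a gene was counted as higher or lower when the absolute log2 ratio exceeded 1.5. Of the 8 members, 7 were measured by this minimum in WT. There, 2 were higher on day 3 (*Ccr4* and *Ccr8*), beside 19.0% of 11440 tested genes, and 3 were lower (*S1pr1*, *Cxcr4* and *Ccr2*), beside 8.84% of tested genes. In cKO all 8 were measured, and the same 2 were higher and the same 3 lower, beside 17.3% and 6.96% of 11232 tested genes. The median log2 ratio was -1.51 in WT and -1.94 in cKO for the 4 lymphoid receptors. For the effector receptors it was 4.76 over 3 measured genes in WT and 1.87 over 4 in cKO. These medians are not over the same genes, since *Ccr6*, at -0.22 in cKO, was measured only there. The effector median in WT is the value of *Ccr4* itself, between *Ccr8* at 5.73 and *Ccr2* at -2.60. Members were chosen with earlier results of these data known, so the medians describe these genes alone. Over all tested genes the median was 0.40 in WT and 0.36 in cKO. Relative to that general shift *S1pr4* was also lower by the size rule, at -1.58 in WT and -1.72 in cKO. In bulk RNA, fewer cells of a type and less RNA per cell cannot be told apart.

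*S1pr1*, the S1P receptor needed for exit from lymph nodes and thymus, had an FPKM of 167 (WT) and 182 (cKO) before stimulation and 8.16 (WT) and 19.7 (cKO) after it. It was the most abundant member before stimulation, and both day 3 libraries lay far below both day 0 libraries. The log2 ratio of day 3 to day 0 was -4.34 in WT, 20.3-fold lower, and -3.20 in cKO, 9.18-fold lower. Its locus is at chr3:115694131-115716659 in the coordinates of the files. *S1pr4*, an S1P receptor found mainly in blood and lymphoid cells, had 22.1 (WT) and 20.1 (cKO) before stimulation and 9.74 (WT) and 7.80 (cKO) after it. Its log2 ratios of -1.18 and -1.35 were in the direction of *S1pr1* and did not reach the size threshold. The *S1pr4* locus, chr10:81496586-81500502, overlaps *Ncln* in the annotation, so fragments may have been assigned between these genes.

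*Ccr7*, the receptor for CCL19 and CCL21 that brings T cells into lymph nodes, stood on 2 loci of the files with the same coordinates, chr11:99144198-99159575. The locus with the higher mean, used here, had an FPKM of 92.4 (WT) and 120 (cKO) before stimulation and 43.7 (WT) and 96.7 (cKO) after it. Its log2 ratio of day 3 to day 0 was -1.08 in WT and -0.31 in cKO, so *Ccr7* stayed among the most abundant members after stimulation. The second locus had 75.7 (WT) and 86.4 (cKO) before stimulation and 10.1 (WT) and 25.1 (cKO) after it, with log2 ratios of -2.89 and -1.78, past the size threshold. All 100 loci next to it in the order of locus identifiers lie on the plus strand and all 100 next to the main locus on the minus strand, where *Ccr7* is annotated. How the files divided fragments between the loci is not given in the sources used here. Summed over both loci the ratio in WT was -1.64, past the size threshold, whereas the summed ratio in cKO did not pass it. The direction of the *Ccr7* ratio was the same on both loci and its size was not.

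*Cxcr4*, the receptor for CXCL12, which retains and positions lymphocytes in bone marrow and lymphoid tissue, had an FPKM of 59.5 (WT) and 78.9 (cKO) before stimulation and 16.6 (WT) and 13.5 (cKO) after it. The cKO library had the higher value of the genotypes on day 0 and the lower value on day 3. Day 3 was 3.57-fold lower than day 0 in WT and 5.80-fold lower in cKO, a log2 ratio of -2.54 in the latter. Its locus is at chr1:128588091-128592299.

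*Ccr4*, the receptor for CCL17 and CCL22, used by type 2 helper, regulatory and skin-homing T cells, had an FPKM of 1.48 (WT) and 1.90 (cKO) before stimulation and 42.7 (WT) and 30.7 (cKO) after it. *Ccr8*, the receptor for CCL1 (and in mouse CCL8), also known from type 2 helper and regulatory T cells, had 0.890 (WT) and 1.35 (cKO) before stimulation and 52.4 (WT) and 39.0 (cKO) after it. These genes were below an FPKM of 2 before stimulation and among the 3 most abundant members after it in both genotypes. The log2 ratio of *Ccr4* was 4.76 in WT, 27.1-fold, and 3.95 in cKO, 15.4-fold. That of *Ccr8* was 5.73 in WT, 53.0-fold, and 4.75 in cKO, 26.9-fold. The day 0 values of *Ccr8* correspond to an estimated 7.0 fragments in WT and 13.0 in cKO, so its fold depends on few fragments, and the 95% counting interval of its log2 ratio was 4.82 to 7.20 in WT and 4.05 to 5.77 in cKO. These intervals are for the ratio without the added 0.1 and cover counting error only. Both genes lie on chromosome 9, *Ccr4* at chr9:114489513-114497360 and *Ccr8* at chr9:120091843-120098647, outside the main cluster of chemokine receptor genes there.

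*Ccr6*, the receptor for CCL20, a mark of type 17 helper T cells and also expressed by B cells, had an FPKM of 0.962 (WT) and 1.5 (cKO) before stimulation and 0.208 (WT) and 1.27 (cKO) after it. These values correspond to an estimated 11.9 (WT) and 22.7 (cKO) fragments on day 0 and 3.0 (WT) and 19.3 (cKO) on day 3. WT day 3 stood below the other 3 libraries. In WT both values were below the FPKM minimum of 1, so the ratio of -1.78 was not counted. In cKO the log2 ratio was -0.22, with a counting interval of -1.23 to 0.66. Its locus, chr17:8236042-8257434, overlaps the non-coding gene *Gm33799*.

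*Ccr2*, the receptor for CCL2 and other monocyte chemoattractants, is abundant on monocytes and is also expressed by effector and memory T cells. It had an FPKM of 7.10 (WT) and 3.07 (cKO) before stimulation and 1.09 (WT) and 0.620 (cKO) after it. Unlike the other effector receptors, it passed the size rule downward on day 3 in both genotypes, 6.08-fold in WT and 4.40-fold in cKO. The call in cKO was lost with 1 added to each FPKM, at a log2 ratio of -1.33, and with an FPKM minimum of 5. Macrophage and monocyte markers were also lower on day 3, 14 of 15 measured genes by the size rule in WT and 11 of 14 in cKO. Of the 15 markers, 4 were listed at 0 in WT day 3 and 8 in cKO day 3, *C1qa*, *C1qb* and *C1qc* among them in both. Others were still present, with *Ly6c2* at 14.7 and 8.88 and *Cd68* at 2.07 and 2.61. *Ly6c2* made up most of the day 3 sum of this list. Without it the markers summed to 323 (WT) and 99.2 (cKO) before stimulation and 11.2 (WT) and 7.64 (cKO) after it. The part of macrophages and monocytes in the *Ccr2* values was not tested.

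**Figure D2:**
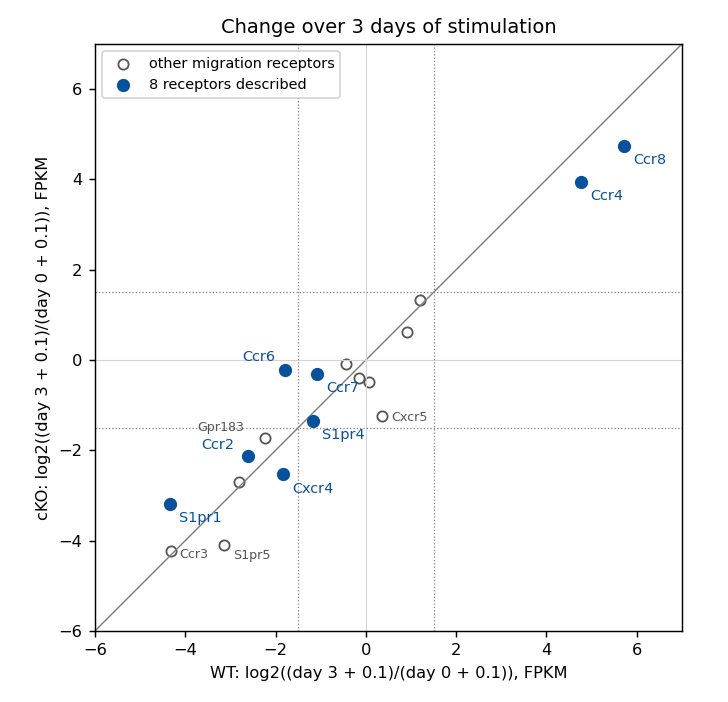
Log2 ratio of day 3 to day 0 in cKO (vertical axis) against that in WT (horizontal axis), after adding 0.1 to each FPKM. Filled points are the 8 receptors, open points the other migration receptors measured in both genotypes, the diagonal marks equal ratios and dotted lines mark the size threshold of 1.5. *Ccr4* and *Ccr8* stand at the upper right with ratios of 3.95 to 5.73, *S1pr1* at the lower left with -4.34 and -3.20, and no receptor of the 8 has opposite signs in the genotypes.

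The other migration receptors give the setting for these changes. Of 22 described, 13 were measured in WT, of which 1 was higher on day 3 (*Gpr15*) and 5 were lower (*Ccr3*, *Ccr9*, *Cx3cr1*, *S1pr5* and *Gpr183*), with a median log2 ratio of -0.15. In cKO 10 were measured, 0 were higher and 4 were lower (*Ccr3*, *Ccr9*, *S1pr5* and *Gpr183*), with a median of -0.86. None had a ratio as high as those of *Ccr4* and *Ccr8*. *Gpr183*, an oxysterol receptor that positions lymphocytes at follicle borders, had an FPKM of 59.2 (WT) and 59.5 (cKO) before stimulation and 12.6 (WT) and 17.8 (cKO) after it. *Ccr9*, the gut-homing receptor for CCL25, had 4.43 (WT) and 4.21 (cKO) before stimulation and 0.542 (WT) and 0.562 (cKO) after it. *Cxcr6*, a receptor of tissue-resident and effector T cells, had 11.6 (WT) and 6.37 (cKO) before stimulation and 8.55 (WT) and 6.00 (cKO) after it, the highest mean among these 22 after *Gpr183*. *Gpr15*, a colon-homing receptor, had 1.02 (WT) and 0.834 (cKO) before stimulation and 3.72 (WT) and 0.740 (cKO) after it.

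Genes that work with the homing receptors were mostly lower on day 3 too. Of 11 homing partners, adhesion molecules and regulators of homing genes, 7 were lower and 1 was higher in WT and 6 were lower and 1 was higher in cKO, with medians of -1.74 and -1.51. *Klf2*, a transcription factor that activates *S1pr1* in resting T cells, had an FPKM of 131 (WT) and 139 (cKO) before stimulation and 5.87 (WT) and 14.9 (cKO) after it. *Klf3*, a related factor, had log2 ratios of -3.35 in WT and -2.46 in cKO, and *Foxo1*, which acts upstream of *Klf2*, *Il7r* and *Ccr7*, had -1.74 and -1.83. *Itga4* and *Itgb7*, the chains of the gut-homing integrin α4β7, had -3.17 and -1.85 in WT and -2.61 and -1.51 in cKO. *Itgb1*, the alternative partner of *Itga4*, was higher, at 1.53 and 1.55. *Il7r*, the interleukin 7 receptor chain of resting T cells, had log2 ratios of -1.51 in WT and -1.48 in cKO. *Cd69*, whose protein binds S1PR1 and removes it from the cell surface, had 140 (WT) and 182 (cKO) before stimulation and 35.2 (WT) and 43.9 (cKO) after it. Its mRNA was thus lower on day 3, when *S1pr1* was low as well.

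**Figure D3:**
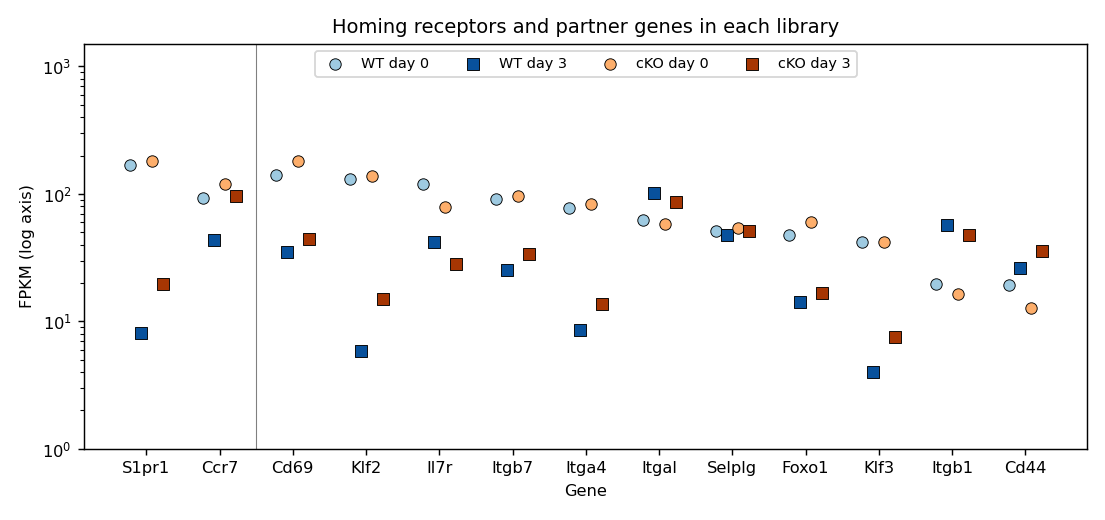
FPKM of *S1pr1* and *Ccr7* (left of the line) and of the 11 homing partners in the 4 libraries, on a log axis, with circles for day 0 and squares for day 3. The day 3 values of *Klf2* are 5.87 in WT and 14.9 in cKO and those of *S1pr1* 8.16 and 19.7.

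Downstream of the receptors, the G protein and adhesion machinery was measured in full, 20 of 20 genes in each comparison. In WT 1 gene was higher (*Plcb3*, 1.53) and 2 were lower (*Rasgrp2*, -3.96, and *Plcb2*, -1.51). In cKO 1 was higher (*Gng2*, 1.60) and 1 lower (*Rasgrp2*, -3.12). *Rasgrp2*, which activates the GTPase RAP1 and through it integrins after chemokine stimulation, had an FPKM of 75.4 (WT) and 80.03 (cKO) before stimulation and 4.76 (WT) and 9.105 (cKO) after it. The most abundant of these genes by mean, *Coro1a*, *Rap1b*, *Dock2* and *Gnai2*, which serve actin turnover, adhesion, RAC activation and receptor coupling, had log2 ratios between -0.94 and 0.49 in both genotypes. Among 13 genes of receptor desensitization, 1 was higher and 2 were lower in each genotype. *Rgs16*, a regulator that shortens G protein signalling, had 0.892 (WT) and 1.61 (cKO) before stimulation and 17.2 (WT) and 11.2 (cKO) after it, and its log2 ratios of 4.13 and 2.73 were in the direction of *Ccr4* and *Ccr8*. *Rgs2*, of the same family, had 49.4 (WT) and 53.0 (cKO) before stimulation and 1.92 (WT) and 1.90 (cKO) after it, and *Rgs14* had log2 ratios of -1.51 and -1.84. Of the abundant members of that list, *Rgs10* had -0.19 and -0.04, *Grk6* -0.87 and -0.95 and *Adrbk1*, which encodes the receptor kinase GRK2, 0.36 and 0.10. None of the 3 measured genes of S1P metabolism was higher or lower by the size rule, and *Sgpp1* and *Sgpl1*, which dephosphorylate and cleave S1P, had log2 ratios between -0.67 and -0.12.

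Ligands of the 8 receptors were also read, since T cells can make some of them. Of 13 genes, 12 matched the files, on 11 separate loci since *Ccl21b* and *Ccl21c* share 1, and 9 of these loci were listed at 0 in WT day 0. *Ccl22*, a ligand of CCR4, was listed at 0 in unstimulated WT cells and had 0.128 in unstimulated cKO cells, and 13.2 (WT) and 9.57 (cKO) after stimulation. *Ccl17*, the other ligand of CCR4, was listed at 0 in both day 0 libraries and had 5.91 in WT day 3 and 0.563 in cKO day 3. *Ccl1*, a ligand of CCR8, was listed at 0 on day 0 and had 3.63 and 1.44 on day 3. *Ccl8*, the other mouse ligand of CCR8, was listed at 0 in all 4 libraries. *Ccl17*, *Ccl22* and *Ccl1* were thus detected in the day 3 libraries, where *Ccr4* and *Ccr8* were high. Of the 6 dendritic cell markers, a list kept because those cells also make CCL17 and CCL22, *Siglech* and *Clec9a* were listed at 0 in both day 3 libraries. *Batf3* made up most of the day 3 sum of that list, with 23.4 in WT and 6.48 in cKO. The other 5 summed to 5.76 (WT) and 4.70 (cKO) before stimulation and 3.04 (WT) and 1.92 (cKO) after it. The part of dendritic cells in the ligand values was not tested.

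The transcription factors of helper lineages gave a mixed picture beside the effector receptors. Of 6 measured genes in each genotype, 2 were higher on day 3 in both, and 4 were lower in WT and 3 in cKO. *Gata3*, of type 2 helper cells, had log2 ratios of 1.75 in WT and 1.64 in cKO, and *Tbx21*, of type 1 helper cells, had 3.95 and 3.88. *Foxp3*, of regulatory T cells, had -2.09 and -1.89. *Tcf7* and *Lef1*, of resting T cells, had -3.02 and -2.20 in WT and -2.02 and -1.87 in cKO. *Rora*, of type 17 helper cells, had -1.51 in WT and -0.87 in cKO.

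The second comparison was cKO against WT at each time, which bears on whether loss of CIC goes together with altered receptor mRNA. On day 0, 0 of the 8 members were higher or lower by the size rule, beside 0.486% of 10910 tested genes higher and 1.81% lower. On day 3, 1 of the 8 was higher (*Ccr6*), beside 0.743% of 10895 tested genes, and 0 were lower, beside 1.21%. The median log2 ratio of cKO to WT was 0.25 for the lymphoid and 0.45 for the effector receptors on day 0, and 0.42 and -0.45 on day 3, beside 0.00 and -0.05 over all tested genes.

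On day 3 the members furthest above 0 were *Ccr6*, *S1pr1* and *Ccr7*. *S1pr1* was 2.40-fold higher in cKO, a log2 ratio of 1.27 with a counting interval of 1.04 to 1.51, and on day 0 the ratio was 0.12. *Ccr7* was 2.21-fold higher in cKO on day 3, a log2 ratio of 1.14 with an interval of 1.02 to 1.27, and 0.38 on day 0. Its second locus gave 1.30 on day 3 and 0.19 on day 0. These day 3 ratios stand against smaller reductions from day 0 to day 3 in cKO, by 1.14 log2 units for *S1pr1* and 0.76 for *Ccr7*. They were beyond counting error and below the size threshold, and the spread between mice is unknown.

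Most homing partners were also above 0 in cKO on day 3. Of the 11 homing partners, 8 were above 0, with a median of 0.32, and 0 passed the size rule, while on day 0 the median was 0.08. *Klf2* had a log2 ratio of cKO to WT of 1.33 on day 3 and 0.08 on day 0, *Klf3* 0.89 and -0.01, and *Itga4* 0.66 and 0.09. In the signalling list *Rasgrp2* had 0.92 on day 3, while 13 of 20 genes were below 0, with a median of -0.07. Among the lineage factors *Tcf7* had 1.08, and 4 of 6 were above 0. *Il7r* went the other way, with -0.55 on day 3 and -0.59 on day 0. *Foxo1* had 0.25 on day 3. *Mki67*, which marks dividing cells, had an FPKM of 238 in WT day 3 and 234 in cKO day 3. Of the 5 genes of the activation list, 1 was above 0 and 4 were below 0 in cKO on day 3, with a median of -0.03. The gene above 0 was *Cd69*, at 35.2 in WT and 43.9 in cKO, which was lower on day 3 than on day 0. The 4 below 0 were *Il2ra* (-0.56), *Myc* (-0.03), *Tfrc* (-0.03) and *Mki67* (-0.02). All 4 were higher on day 3 than on day 0 in both genotypes. The day 3 sums of the 5 genes were 1050 in WT and 886 in cKO. Without *Il2ra*, at 508 and 344, they were 542.3 and 541.6, with *Cd69* still included. The part of a different extent of activation in the receptor values was not tested.

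*Ccr6* was 4.46-fold higher in cKO on day 3, a log2 ratio of 2.16. The WT value rests on an estimated 3.0 fragments, and the counting interval of the ratio was 0.81 to 4.98. On day 0 the ratio was 0.59, with an interval of -0.42 to 1.79. With 1 added to each FPKM the day 3 ratio was 0.91 and no longer passed the threshold. *Ccr6* is also expressed by B cells, whose 10 markers had a summed FPKM of 23.6 (WT) and 50.4 (cKO) before stimulation and 57.3 (WT) and 78.2 (cKO) after it. Of the B-cell markers, 10 of 10 were above 0 in cKO on day 0, with a median of 1.17, and 6 of 9 measured ones on day 3, with a median of 0.18. *Foxp3*, the defining marker of regulatory T cells, another source of *Ccr6* mRNA, had 5.11 (WT) and 7.87 (cKO) before stimulation and 1.12 (WT) and 2.06 (cKO) after it. The 5 regulatory T-cell markers together summed to 77.3 (WT) and 92.0 (cKO) on day 0 and 969 (WT) and 797 (cKO) on day 3, of which *Il2ra*, an activation gene as well, made up 508 and 344 on day 3. *Tnfrsf18* (322 and 281) and *Ctla4* (127 and 161) made up most of the rest. Both were also higher on day 3 than on day 0 in both genotypes. *Ikzf2* had 10.8 and 9.33 on day 3, so this sum does not follow *Foxp3*. The part of these cells in the *Ccr6* values was not tested.

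*Ccr2* was below 0 in cKO at both times, with a log2 ratio of -1.18 on day 0 and -0.72 on day 3, 2.27-fold and 1.65-fold lower. The counting interval on day 0 was -1.51 to -0.92. On day 0 the macrophage and monocyte markers were lower as well, 12 of 15 by the size rule, and their median was -1.82. All 15 were below 0. *Ccr3*, a receptor of eosinophils and other myeloid cells, had an FPKM of 6.46 in WT day 0 and 1.77 in cKO day 0, a log2 ratio of -1.81. *Cx3cr1*, a receptor of monocytes and macrophages, had 1.52 in WT day 0 and 0.592 in cKO day 0. Neutrophil markers had sums of 61.5 and 28.4 and natural killer cell markers 39.1 and 25.8 in those libraries, with 6 of 6 and 5 of 5 measured genes below 0 in cKO. The part of these cells in the difference of *Ccr2* between genotypes was not tested. *Ccr2* lies at chr9:124101967-124109140 within a cluster of chemokine receptor genes of similar sequence, and fragments shared with them may have been divided wrongly.

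**Figure D4:**
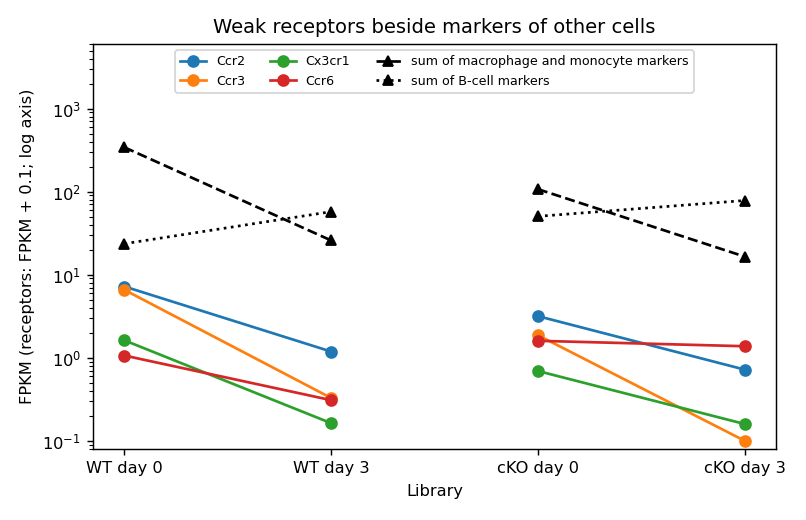
FPKM of *Ccr2*, *Ccr6* and 2 other receptors (0.1 added, circles) and summed FPKM of markers of macrophages and monocytes (15 genes) and of B cells (10 genes, triangles) in each library, on a log axis, with lines joining day 0 and day 3 of a genotype. *Ccr2*, *Ccr3* and *Cx3cr1* are lower in cKO day 0 than in WT day 0, as is the macrophage and monocyte sum of 341 and 107, whereas the B-cell sum is higher in cKO.

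The receptors that were higher after stimulation had slightly lower values in cKO on day 3. *Ccr4* had a log2 ratio of cKO to WT of 0.34 on day 0 and -0.47 on day 3, the latter with a counting interval of -0.61 to -0.34. *Ccr8* had 0.55 on day 0, with a wide interval of -0.83 to 2.17, and -0.42 on day 3, with an interval of -0.63 to -0.23. *Cxcr4* had 0.41 on day 0 and -0.30 on day 3. *S1pr4* had -0.14 and -0.32, and both of its intervals included 0. *Gata3* and *Tbx21* had -0.37 and -0.49 on day 3, of similar size to *Ccr4* and *Ccr8*.

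**Figure D5:**
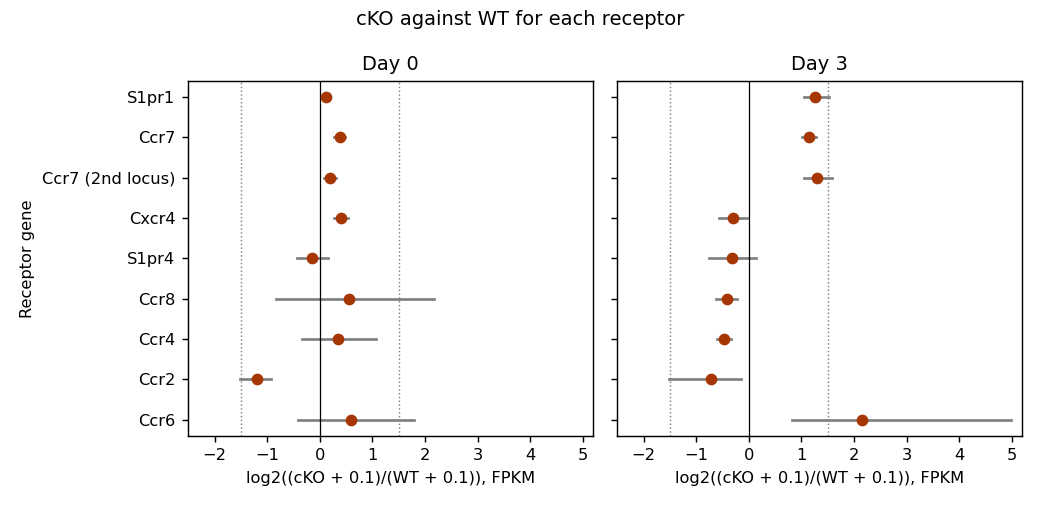
Log2 ratio of cKO to WT on day 0 (left) and day 3 (right) for each receptor, after adding 0.1 to each FPKM (points), with the 95% interval from counting error of the ratio without the added value (bars). Dotted lines mark the size threshold of 1.5. On day 3 *Ccr6* at 2.16 lies past it, with an interval of 0.81 to 4.98, and *S1pr1* at 1.27 and *Ccr7* at 1.14 and 1.30 lie between 0 and the threshold.

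Among the other migration receptors, 1 of 12 measured on day 0 was lower in cKO (*Ccr3*) and 0 were higher, with a median of -0.05. On day 3, 2 of 9 were lower (*Ccr1*, -2.496, and *Gpr15*, -2.18) and 0 were higher, with a median of -0.50. Over all tested genes 1.81% were lower and 0.486% higher on day 0, and 1.21% and 0.743% on day 3. Every value of *Ccr1* and *Gpr15* was below an FPKM of 5, so neither call holds with that minimum. *Gpr15* had 3.72 in WT day 3 and 0.740 in cKO day 3. The values of *Ccr1*, a receptor of myeloid and effector cells, were 0.533 (WT) and 0.198 (cKO) before stimulation and 1.14 (WT) and 0.119 (cKO) after it. No gene of receptor signalling, desensitization or S1P metabolism was higher or lower by the size rule between genotypes at either time. Of the ligands, *Ccl17* was lower in cKO on day 3, with a log2 ratio of -3.18, beside -0.46 for *Ccl22* and -1.27 for *Ccl1*. The cKO value of *Ccl17*, 0.563, lay below the FPKM minimum of 1, where values carry few fragments. Dendritic cell markers summed to 26.4 in WT day 3 and 8.4 in cKO day 3, and without *Batf3* to 3.04 and 1.92. The part of dendritic cells in these ligand differences between genotypes was not tested. The lineage factors had 0 genes past the size rule at either time.

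The genes whose pattern over the 4 libraries was most like that of each member were found among 11659 genes by the root mean square difference of log2 values, each centred on its own mean. The nearest to *S1pr1* was *Klf2*, at 0.041 log2 units, followed by *Spag6* at 0.082 and *Timm8a2* at 0.11, and 8 genes lay within 0.25. The nearest to *Ccr6* were *Bcl6* at 0.075, *Trat1* at 0.082 and *Arhgap20* at 0.16, with 6 genes within 0.25. The WT day 3 value of *Ccr6* rests on an estimated 3.0 fragments, so these distances are smaller than its counting error. *Bcl6*, the transcriptional repressor of follicular helper T cells, had an FPKM of 6.70 (WT) and 9.32 (cKO) before stimulation and 1.61 (WT) and 7.89 (cKO) after it. The nearest to *Ccr4* were *Il2*, the T-cell growth factor, at 0.069, *Tex15* and *Ryk*, and to *Ccr8* were *Crabp2* at 0.15, *Gadd45g* and *Efna5*. The nearest to *Ccr7* were *Sertad3* at 0.045, *Rfx2* and *Tmie*, to *Cxcr4* were *L1cam* at 0.065, *Plekhb1* and *Zfp36l2*, and to *Ccr2* were *Gpd1* at 0.066, *Col14a1* and *S100a4*. *S1pr4*, near to *Nradd*, *Ifrd1* and *Acsbg1*, had 510 genes within 0.25, so its pattern was a common one. With 4 points per gene, likeness of this kind is a description of these libraries.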

How the data were processed

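RNA was from spleen CD4 T cells, 1 library each of WT and cKO on day 0 and day 3. The labels name Trizol for extraction and TruSeq for libraries, whereas the study's methods name another extraction kit. The submitters' processing notes list CASAVA, TopHat2 2.0.10 and Cufflinks 2.1.1 and mm9. The deposited FPKM values were made by the authors with Cufflinks and are relative to transcript length and mapped fragments. Locus ends equal those of GRCm38.p6 for 44.4% of 21286 genes and those of mm9 for 0.723% of 19909, so coordinates were read as GRCm38. Such counting may divide fragments wrongly between overlapping or similar genes, and low FPKM values carry few fragments.

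The FPKM of each library was taken from the 2 tables of day 3 against day 0. The 2 tables headed as cKO against WT hold weighted means of libraries, and 16 tables of annotation were not used here. Fold change, p-value and q-value columns of the authors' own comparisons were not used. Of 31171 loci, 7265 (23.3%) have no gene name and were left out. Where a name stood on several loci (411 names), that of highest mean FPKM was used, and 25 names that had become dates were restored by locus identifier.

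Log2((a + 0.1)/(b + 0.1)) was computed, with a minimum FPKM of 1 in either library and a size threshold of 1.5. A fold on this scale understates changes of weak genes. Fragments were estimated from steps between low FPKM values and transcript length, and intervals (95%, exact binomial on the share of fragments) cover counting error only. The text names every member. Of each pathway list (other migration receptors, homing partners, signalling, desensitization, S1P metabolism, ligands, lineage factors) it may name genes past the size rule and up to 4 of highest mean FPKM. *Cd44*, *Ccl8*, *Mki67*, *Etv5* and the single marker genes, outside this rule, were named after their values were seen, as were the sums without 1 gene, and some genes of the lists are not reported here. Marker lists appear mainly as counts and sums, and for each member the 3 nearest genes are given. Members and lists were chosen with earlier results of these data known. Steps were checked on simulated data. Alternatives were other pseudocounts, FPKM minimums and thresholds, centring on the median gene, and summing loci. For WT day 0, WT day 3, cKO day 0 and cKO day 3 in this order, the CD8 T-cell markers summed to 4.5, 15.3, 7.7 and 9.4, basophil and mast cell markers to 13.1, 13.2, 6.2 and 12.2, dendritic cell markers to 6.2, 26.4, 4.9 and 8.4, and erythroid markers to 390, 16.8, 150 and 14.5. Python 3.11.15, numpy 2.4.6, pandas 2.3.3, scipy 1.17.1 and matplotlib 3.10.9 were used.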

Additional observations from a re-analysis of the deposited data

Results flagged for a closer look

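Some receptors had log2 ratios of opposite sign in the conditions set against each other. With 1 library per condition none of these differences was tested, and each compares ratios that share libraries. The ratio of cKO to WT was 0.41 on day 0 and -0.30 on day 3 for *Cxcr4*, a difference of -0.70. For *Ccr4* it was 0.34 and -0.47, a difference of -0.81, and for *Ccr8* 0.55 and -0.42, a difference of -0.98. The day 0 intervals of *Ccr4* and *Ccr8* from counting error include 0.

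Outside the 8 genes, *Cxcr3*, a receptor of type 1 helper cells, had activation ratios (day 3 over day 0) of 0.08 for WT and -0.49 for cKO, a difference of -0.57, and the same difference separates its ratios of cKO to WT, 0.21 on day 0 and -0.36 on day 3. *Cxcr5*, the receptor of follicular helper T cells and B cells, had activation ratios of 0.37 for WT and -1.23 for cKO, a difference of -1.60, and ratios of cKO to WT of 1.04 on day 0 and -0.56 on day 3. On day 0 the B-cell markers were also above 0 in cKO, 10 of 10 with a median of 1.17, and their part in the *Cxcr5* value was not tested.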

How the results depend on the processing

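The counts of members higher or lower on day 3 than on day 0 stayed between 5 and 7 in WT and between 4 and 6 in cKO over the alternatives. No member had opposite signs in the genotypes under any of them. The day 3 difference between genotypes was less stable. Its count of 1 (*Ccr6*) became 0 with 1 added to each FPKM and 0 with an FPKM minimum of 5, and 3 with a size threshold of 1 (*Ccr6*, *Ccr7* and *S1pr1*). On day 0 the count of 0 became 1 with a size threshold of 1 (*Ccr2*, lower). With 1 added, *Ccr2* in cKO had an activation log2 ratio of -1.33 and no longer passed, and it was also lost with an FPKM minimum of 5. The other *Ccr7* locus and a common value of 1 fragment for all libraries were alternatives chosen after seeing the data. The latter changed none of 32 calls, moved ratios by at most 0.29 and turned 1 sign. No ratio past the threshold reversed under any alternative run. No paired analysis was possible because each group holds 1 library, and for the same reason none could be left out. Depth limits *Ccr6* and the day 0 values of *Ccr8* most.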
